A study of Mus musculus with 6 samples.

Results

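The kinesin motor family was followed by RNA-seq through the first hours of TGFβ treatment of NMuMG cells, an established line of mouse mammary gland epithelium. Every row of the deposited gene counts whose symbol was Kif followed by a digit was taken, which gave 39 members among 21240 genes. By their textbook roles 12 were set down as mitotic kinesins, 13 as transport kinesins and 12 as other kinesins, a division made with results of these data already known. The last 2 rows were Kif1bp, a protein that binds kinesins, and Kif4-ps, a pseudogene. The cells were held for 6 h without serum and insulin and then given vehicle for 2 h, TGFβ1 at 5 ng/ml for 2 h or TGFβ1 at 5 ng/ml for 12 h, with 2 biological replicates of each. The vehicle was sampled at 2 h alone, so that at 12 h the effect of TGFβ and that of 10 more hours in this deprived culture cannot be told apart.

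Kinesins are ATP-driven motors that walk along microtubules or take their ends apart. Mitotic kinesins build and lengthen the spindle, move chromosomes and organise the midzone at which the cell divides, and their RNAs are made mainly in the G2 and M phases of the cell cycle. Transport kinesins carry vesicles, organelles and ciliary cargo in cells that are dividing or not. In epithelial cells TGFβ is known both to halt proliferation and to start the passage to a mesenchymal form.

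The 6 libraries held between 14705886 and 23786993 counts. Levels are CPM, counts scaled by library size and TMM factors, and 3 counts in 1 library equalled 0.131 to 0.191 CPM. Among the markers of epithelium Cdh1, Krt8, Krt18 and Krt19 were abundant (Cdh1, 338 to 609 CPM), but Epcam held only 2 to 16 counts a library and Cldn3 at most 1, so that these 2 defining markers were absent or nearly so. Of the markers of other cell types Rbfox3, Nefl and Cd3e were at 0 in every library and Ptprc, Pecam1, Kdr and Snap25 did not exceed 4 counts, while Syt1 held 0 to 8, Syp 3 to 14, Csf1r 8 to 22 and Cd68 95 to 124. Mesenchymal Fn1 went from 79.6 and 99.7 CPM with vehicle to 1469 and 1097 CPM at 12 h, and endothelial Cdh5 from 0.0589 and 0.127 to 1.70 and 1.85 CPM. The other tested mesenchymal markers had a log2FC at 12 h of 3.51 (Col1a1), 0.76 (Cdh2) and 0.69 (Vim), each called by edgeR, and 0.09 (Pdgfra), which was not, and Pdgfrb went from 0 reads with vehicle to 22 and 26 at 12 h. The keratins moved apart at 12 h, with a log2FC of 1.63 for Krt8, 1.53 for Krt18 and -1.95 for Krt19, each called by edgeR. The part of these markers in the results on kinesins was not tested. In bulk RNA, fewer cells of a type and less RNA per cell cannot be told apart.

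Since the mitotic members fell together at 12 h, the promoters of the family are shown first. RefSeq promoters of 300 bases (250 before the transcript start and 50 from it on, GRCm38.p6) were matched for 32 of the 39 members. On either strand 4 motifs were searched: TTTGAA, the core of the cell cycle homology region (CHR) bound by the DREAM and MuvB complexes, CCAAT, bound by NF-Y, the E2F forms, spelled TTCCCGC, or else TTCGCGC, or else TTGCCGC, or else TTGGCGC, and TGANTCA, bound by AP-1. The E2F form TTGGCGC can share its first 4 bases with CCAAT read on the other strand. Below are the 120 bases before and 20 bases from the start on for 6 mitotic kinesins with TTTGAA near the start, for Kif18a, the mitotic kinesin that fell least, for Kif1c and Kif3c, the most abundant transport kinesin and the one that rose, and for Kif26b, which appeared at 12 h. Capitals mark TTTGAA and CCAAT or their reverse complements TTCAAA and ATTGG.
Kif11 (chr19:37376262-37376401, plus strand): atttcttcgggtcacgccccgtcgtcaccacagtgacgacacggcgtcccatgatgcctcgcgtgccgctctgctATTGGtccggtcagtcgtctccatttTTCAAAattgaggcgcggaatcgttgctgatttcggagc
Kif15 (chr9:122950961-122951100, plus strand): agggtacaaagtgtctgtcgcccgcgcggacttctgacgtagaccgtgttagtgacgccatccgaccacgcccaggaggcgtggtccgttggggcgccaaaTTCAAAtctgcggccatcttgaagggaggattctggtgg
Kif22 (chr7:127042401-127042540, minus strand): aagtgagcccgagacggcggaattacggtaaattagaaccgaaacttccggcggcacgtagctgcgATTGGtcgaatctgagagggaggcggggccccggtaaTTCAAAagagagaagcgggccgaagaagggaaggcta
Kif18b (chr11:102925105-102925244, minus strand): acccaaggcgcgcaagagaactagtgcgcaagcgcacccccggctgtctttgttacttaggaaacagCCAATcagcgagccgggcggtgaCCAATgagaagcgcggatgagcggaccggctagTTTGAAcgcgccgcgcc
Kif23 (chr9:61946780-61946919, minus strand): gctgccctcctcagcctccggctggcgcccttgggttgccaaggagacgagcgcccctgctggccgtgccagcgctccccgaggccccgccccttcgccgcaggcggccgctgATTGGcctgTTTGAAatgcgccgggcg
Kif20b (chr19:34922238-34922377, plus strand): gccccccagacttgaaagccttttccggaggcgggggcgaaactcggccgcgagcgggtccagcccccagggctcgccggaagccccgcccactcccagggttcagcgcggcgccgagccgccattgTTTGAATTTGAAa
Kif18a (chr2:109280618-109280757, plus strand): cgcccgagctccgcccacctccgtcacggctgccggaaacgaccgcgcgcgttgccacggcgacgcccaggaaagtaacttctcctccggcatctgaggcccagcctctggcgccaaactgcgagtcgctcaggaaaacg
Kif1c (chr11:70700428-70700567, plus strand): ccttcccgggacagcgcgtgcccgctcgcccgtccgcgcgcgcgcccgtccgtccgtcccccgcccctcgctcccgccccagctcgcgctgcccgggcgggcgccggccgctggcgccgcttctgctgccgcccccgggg
Kif3c (chr12:3365012-3365151, plus strand): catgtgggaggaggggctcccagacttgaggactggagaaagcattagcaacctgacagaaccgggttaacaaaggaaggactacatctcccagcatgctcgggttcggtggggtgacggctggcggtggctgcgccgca
Kif26b (chr1:178529005-178529144, plus strand): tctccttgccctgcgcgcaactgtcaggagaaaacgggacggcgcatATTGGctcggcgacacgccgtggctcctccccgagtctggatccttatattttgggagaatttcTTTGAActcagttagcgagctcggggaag

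TTTGAA stood in 9 of the 11 mitotic kinesin promoters (81.8%), against 1 of 10 transport kinesins (10.0%), 2 of 10 other kinesins and 20.2% of the promoters of 27025 genes. In Kif11, Kif15 and Kif22 the match nearest the start lay on the minus strand, with its first base 19, 19 and 17 bases before the start, and Kif15 and Kif22 held a further copy, 234 and 215 bases before it. In Kif23, Kif18b, Kif20b and Kif4 it lay just behind the start, at positions 3, 4, 8 and 20, counting the start as 1, and Kif20b held a second copy at once after the first. In Kif2c and Kif14 it lay farther away, 103 and 228 bases before the start. Kif18a and Kif2b were the 2 mitotic kinesins without these letters in the window, and Kif1a, hardly detected here, was the 1 transport kinesin with them. Kif26b, which rose, held TTTGAA 9 bases and CCAAT 73 bases before the start, and Kif20a, which fell, was not matched.

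CCAAT was less divided between the lists, with 7 of 11 mitotic, 3 of 10 transport and 4 of 10 other kinesins against 41.1% of all genes. An E2F form was found in 2 of 11 mitotic kinesins, Kif15 and Kif18a, in 1 of 10 transport kinesins, in 10.9% of all genes and in 20.4% of the 8918 that were both matched and tested for expression. TGANTCA was in none of the 32 member promoters and in 8.97% of all. Among the same 8918 genes the share with TTTGAA was 14.03%. A match is a description of the letters and not a bound site, and the division into mitotic and transport kinesins was made with the expression results known.

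**Figure D1:**
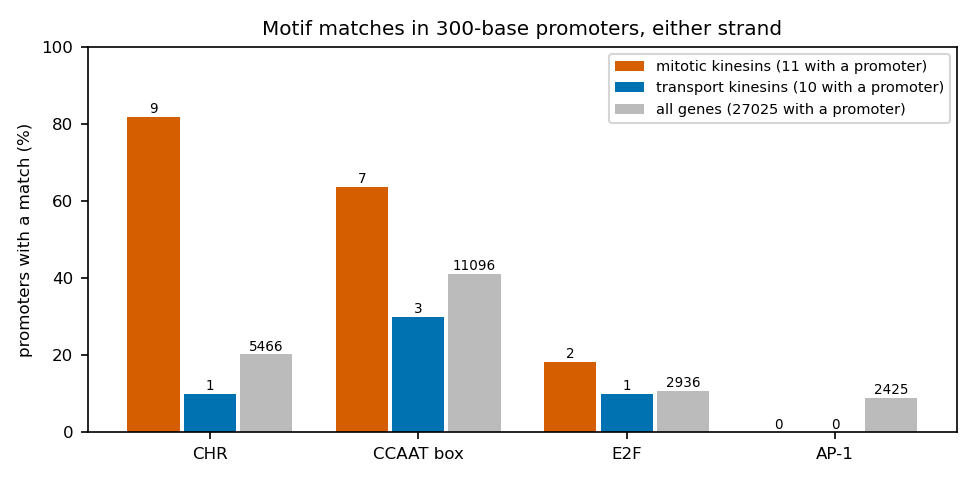
Share of 300-base promoters (y axis, percent) with a match to each of 4 motifs (x axis) for mitotic kinesins, transport kinesins and all genes, with the number of matching promoters above each bar. For the CHR motif the mitotic list (81.8%) stands apart from transport kinesins (10.0%, 1 of 10 promoters) and all genes (20.2%). The spread of the 3 is smaller for the other motifs.

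At 2 h few members of the family were called. Of the 30 members that passed the filter (2 CPM in at least 2 libraries), 2 were called lower, Kif12 and Kif13b, and none higher, with edgeR's quasi-likelihood test at an adjusted p under 0.05. By the same test 15.2% of all 11080 genes were called, 5.25% lower and 9.91% higher. No member had an absolute log2FC above 1 with its call at 2 h, which 2.01% of all genes had downward and 4.23% upward. None of the 11 tested mitotic kinesins was called, their log2FC ran from -0.61 for Kif18a to 0.09 for Kif20a with a median of -0.19, and the vehicle and 2 h libraries overlapped in all 11, beside 44.2% of all genes tested. The lowest adjusted p among them was 0.304 and, with a replicate block in edgeR, 0.0544 (Kif14). Replicate 2 lay above replicate 1 for each of the 11 in both groups, so that the overlap says little on a change. Within same-numbered libraries Kif11, Kif14 (-0.33 and -0.43), Kif15, Kif18a (-0.57 and -0.63), Kif20b and Kif23 were lower at 2 h in both. Kif2c, Kif18b and Kif22 were higher in both, by at most 0.07, and Kif4 and Kif20a differed in sign. limma-voom and DESeq2 called no mitotic kinesin at 2 h either.

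At 12 h all 11 tested mitotic kinesins fell, each by more than 1 on the log2 scale. This count depends on the division made with results known. Kif2a, a depolymerase with roles in neurons and at the spindle, was placed among other kinesins and was not called (log2FC -0.14). Of the 10 tested transport kinesins 6 were not called, close to the 56.7% of all genes not called (3 and 44.7% with a replicate block). Over the whole family 20 of 30 tested members were called, beside 43.3% of all genes, with 18 lower, beside 21.5%, and 2 higher, beside 21.8%. Among the 2 was Kif26b, which passed the filter through the 12 h libraries alone. Among the 18 were Kif14, Kif18b, Kif2c, Kif4, Kif15 and Kif5c, which passed it through the other groups alone. With the added condition of an absolute log2FC above 1, 15 members were lower (11.6% of all genes) and 2 higher (8.03%), Kif3c and again Kif26b. The median log2FC at 12 h was -5.03 for mitotic kinesins, 0.10 for transport kinesins and 0.02 for all genes tested. Summed over the 12 mitotic kinesins, the level went from 546 and 1095 CPM (vehicle) and 511 and 956 CPM (2 h) to 35.04 and 31.3 CPM at 12 h. The 12 h mean was 4.04% of the vehicle mean, a 24.7-fold decrease. The 13 transport kinesins summed to 1537 and 1543, 1760 and 1576, and 1539 and 1623 CPM, and their 12 h mean was 103% of vehicle. Of the CPM summed over all 39 rows the mitotic share went from 23.4% and 37.5% with vehicle to 2.02% and 1.71% at 12 h.

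**Figure D2:**
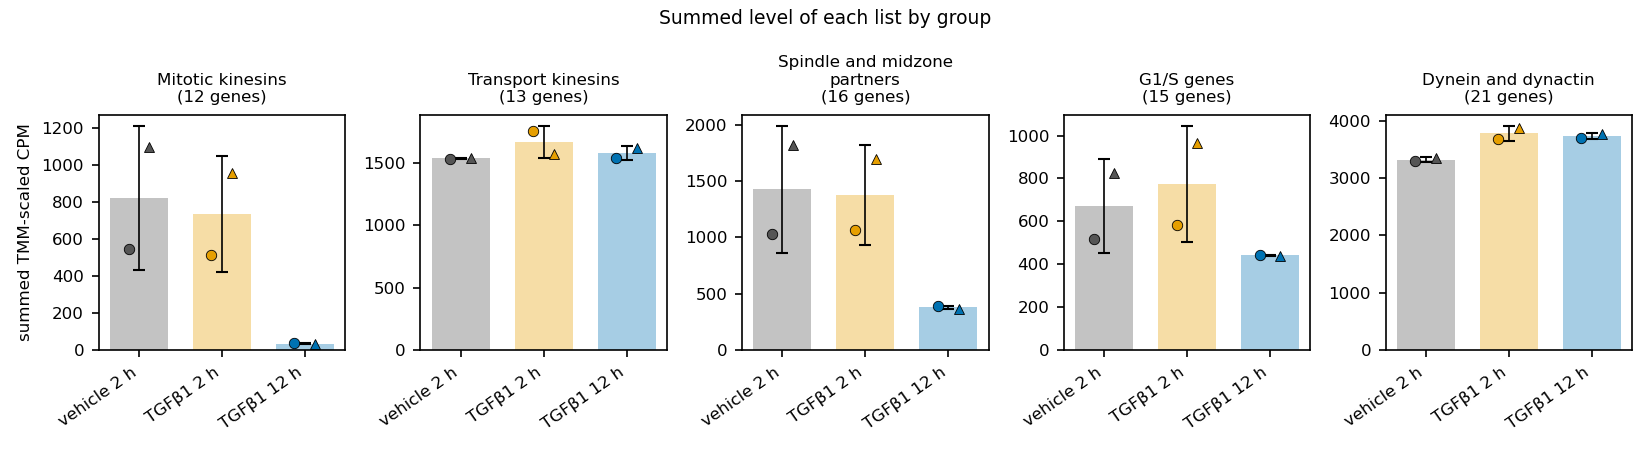
Summed TMM-scaled CPM (y axis) of mitotic kinesins, transport kinesins and 3 neighbouring gene lists in each group (x axis), with bars at the mean, error bars of 1 SD and a circle and a triangle for replicates 1 and 2. Mitotic kinesins went from a vehicle mean of 820 to 33.2 CPM at 12 h, while transport kinesins were at 1540 and 1581 CPM.

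Of the motors that push the spindle poles apart, Kif11 was the most abundant mitotic kinesin with vehicle and Kif15 one of the least. Kif11 (chr19:37450893-37496349 in the mm9 assembly, GENCODE vM1 gene), a 4-headed motor that slides antiparallel microtubules, had 154 and 293 CPM under vehicle, 135 and 234 CPM at 2 h, and 6.10 and 5.65 CPM at 12 h. Its log2FC at 12 h was -5.24 ± 0.431 (SE, n = 2 and 2, edgeR adjusted p = 0.000217). Kif15, which helps Kif11 to keep the spindle bipolar, had 17.4 and 37.9 CPM, 15.4 and 29.7 CPM, and 0.959 and 1.23 CPM in the same order, a log2FC of -4.66 ± 0.544 (adjusted p = 0.000819). Kif15 passed the filter through the vehicle and 2 h libraries alone, so that its adjusted p is a description. For both genes the 12 h libraries lay far below all others, and of the 2 h libraries replicate 1 lay below both of vehicle and replicate 2 between them.

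The motors of the midzone and of cytokinesis all fell at 12 h, with log2FC from -6.32 to -4.12. Kif20a, which brings the Aurora B complex to the midzone, had 84.2 and 167 CPM under vehicle, 84.1 and 184 CPM at 2 h, and 3.36 and 4.37 CPM at 12 h (log2FC -5.03 ± 0.536). Kif23, the motor of the centralspindlin complex, had 77.1 and 136 CPM, 74.0 and 113 CPM, and 6.36 and 5.86 CPM (log2FC -4.12 ± 0.349). Kif4, a motor on chromosome arms and at the midzone, had 45.5 and 91.7 CPM, 48.4 and 87.8 CPM, and 1.74 and 1.59 CPM (log2FC -5.35 ± 0.497). Kif20a was the sole gene of these 3 with a 2 h mean above the vehicle mean, and that difference, 0.09, was under its SE. Kif20b, a motor of late cytokinesis, had 53.4 and 130 CPM, 47.1 and 85.9 CPM, and 5.58 and 4.16 CPM (log2FC -4.23 ± 0.527). Kif14, which acts with citron kinase in cytokinesis, had 16.8 and 37.3 CPM, 13.3 and 27.6 CPM, and 0.218 and 0.462 CPM. These last values of Kif14 were 5 and 9 reads, and its log2FC of -6.32 ± 0.684 was the lowest of the family. All 5 genes of this group were called at 12 h (adjusted p from edgeR 0.000241 to 0.00107). Kif4 and Kif14 passed the filter through the vehicle and 2 h libraries alone, so that their adjusted p is a description.

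Chromosome and microtubule-end motors fell over a wider range, owing to Kif18a. Kif2c, a depolymerase at kinetochores, had 27.4 and 56.1 CPM under vehicle, 27.5 and 58.3 CPM at 2 h, and 0.872 and 0.873 CPM at 12 h (log2FC -5.57 ± 0.580). Kif22, a chromosome arm motor, had 30.7 and 66.4 CPM, 31.9 and 68.2 CPM, and 3.57 and 2.98 CPM (log2FC -3.88 ± 0.525). Kif18b, which trims astral microtubules, had 20.02 and 46.02 CPM, 21.1 and 46.9 CPM, and 0.523 and 0.411 CPM (log2FC -6.11 ± 0.685). These 3 genes were called at 12 h (adjusted p from edgeR 0.000516 to 0.00151). Kif2c and Kif18b passed the filter through the vehicle and 2 h libraries alone, so that their adjusted p is a description. The 2 h values of all 3 genes lay within those of vehicle or just above. The close relative of Kif18b, Kif18a (chr2:109120895-109181904 in mm9), which damps chromosome movement at the metaphase plate, had 19.3 and 32.9 CPM, 12.9 and 21.2 CPM, and 5.75 and 3.70 CPM. Kif18a therefore kept 18.1% of its vehicle level, whereas Kif18b kept 1.41%. The log2FC of Kif18a was -2.45 ± 0.382 (edgeR adjusted p = 0.00268), the smallest fall in the list.

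Ordered by log2FC at 12 h, the mitotic kinesins ran from Kif14, Kif18b, Kif2c, Kif4, Kif11, Kif20a, Kif15, Kif20b, Kif23 and Kif22 to Kif18a. Each of the first 9 steps in this order was smaller than the combined SE of the pair, where the SEs were taken as independent and without the replicate block. Within same-numbered libraries 5 of these 9 steps went the same way in both replicates and 4 did not. The step from Kif22 to Kif18a, 1.43, was 2.20 times the combined SE and was 1.32 and 1.30 within replicates. The makeup of the mitotic kinesin RNA moved accordingly: Kif18a was 3.53% and 3.005% of the summed CPM under vehicle, 2.53% and 2.22% at 2 h, and 16.4% and 11.8% at 12 h. Kif11 was 28.2% and 26.7% with vehicle and 17.4% and 18.1% at 12 h. Under vehicle and at 2 h these shares were close between replicates, although the sums were not.

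**Figure D3:**
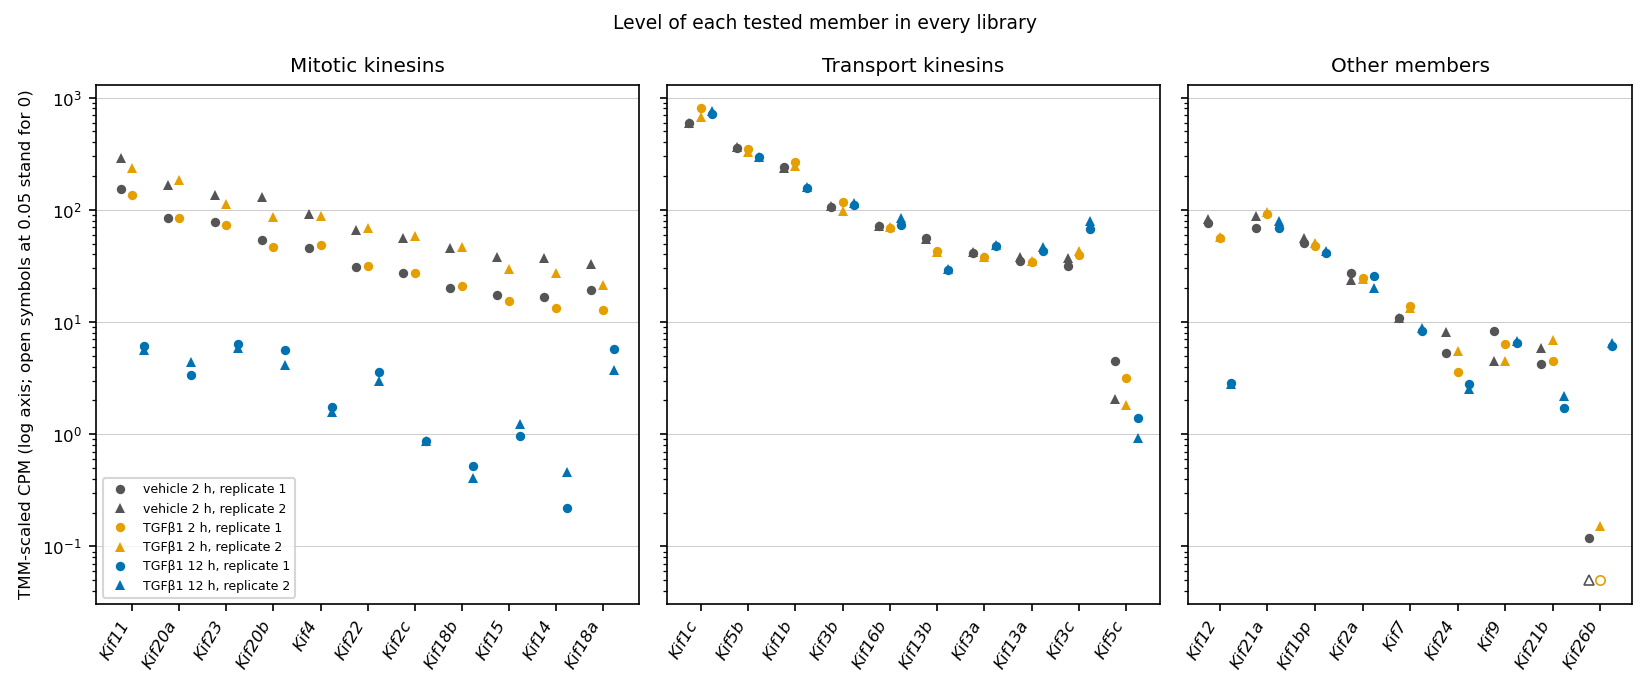
TMM-scaled CPM (y axis, log scale) of each tested member (x axis) in all 6 libraries, with colour for the group, circles for replicate 1, triangles for replicate 2 and open symbols for 0. The 12 h symbols of all 11 mitotic kinesins lie below those of the other groups, with Kif18a nearest to them, beside 26.2% of all genes tested. Those of 6 of 10 transport kinesins lie above vehicle, beside 39.5% of all, and those of the other 4 lie below it, beside 37.2%.

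Replicate 2 held more mitotic kinesin RNA than replicate 1 before the fall. It was higher for 11 of 11 mitotic kinesins with vehicle (median log2 ratio 1.02) and for 11 of 11 at 2 h (0.94), but for 4 of 11 at 12 h (-0.11). The medians of transport kinesins in the same 3 groups were 0.00, -0.06 and 0.04, and those of all genes were 0.00, 0.01 and 0.03. G2/M genes (0.97, 0.87 and 0.11) and G1/S genes (0.59, 0.67 and -0.08) moved with the mitotic kinesins, and their part in this difference was not tested. Taken within replicate numbers, the median log2 ratio of mitotic kinesins at 12 h to vehicle, less that of transport kinesins, was -4.55 in replicate 1 and -5.33 in replicate 2. Without either vehicle library, or with any other library left out, 11 mitotic kinesins were still lower at 12 h. Without vehicle replicate 2 7 log2FC shrank by more than 1.5 times in fold, to -5.64 for Kif14, -5.40 for Kif18b, -4.97 for Kif2c, -4.76 for Kif4, -3.99 for Kif15, -3.45 for Kif20b and -3.23 for Kif22, and without 12 h replicate 2 that of Kif14 was -6.92.

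**Figure D4:**
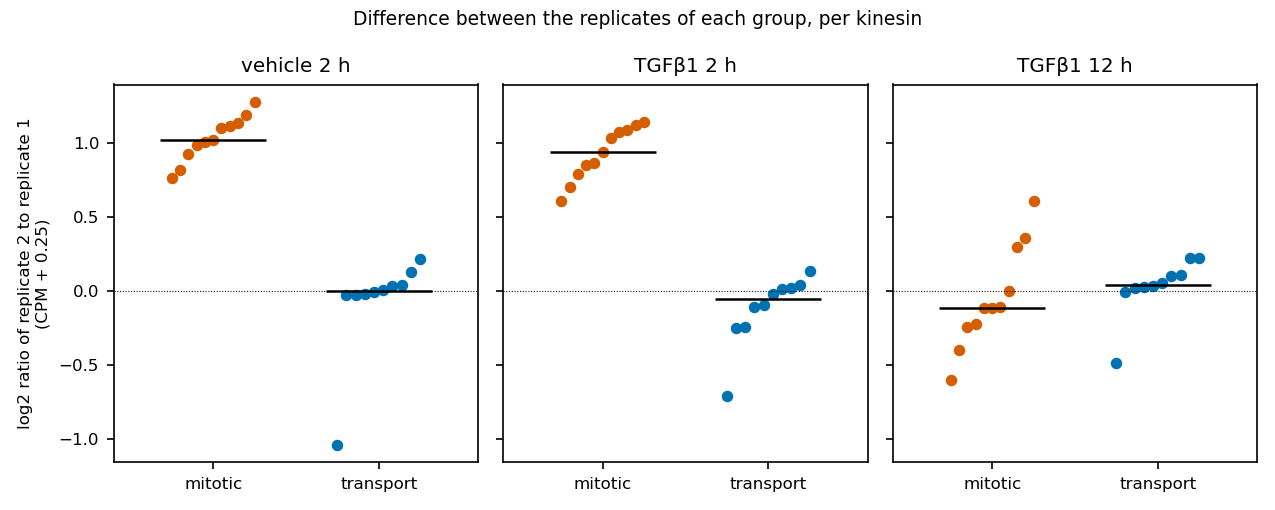
Log2 ratio of replicate 2 to replicate 1 (y axis, CPM + 0.25) for each tested mitotic and transport kinesin in the 3 groups, with a line at the median. Mitotic kinesins sit near 1 with vehicle and at 2 h (medians 1.02 and 0.94) and around 0 at 12 h, and transport kinesins sit around 0 throughout, with Kif5c lowest.

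Of the 10 tested transport kinesins, 3 were lower at 12 h and 1 was higher, beside 21.5% and 21.8% of all genes. Kif3c (chr12:3365132-3406494 in mm9), a kinesin-2 subunit that pairs with Kif3a, rose from 31.7 and 36.9 CPM with vehicle through 39.2 and 43.0 CPM at 2 h to 68.0 and 79.4 CPM at 12 h. Its log2FC was 1.10 ± 0.135 (edgeR adjusted p = 0.000983), and every 12 h library was above every other. Its partner Kif3a had 40.8 and 42.0 CPM, 37.6 and 38.0 CPM, and 47.9 and 48.5 CPM, a log2FC of 0.22 against vehicle that was not called. Kif3b, the usual partner of Kif3a in building cilia, lay between 98.2 and 116 CPM in all 6 libraries, with a log2FC of 0.07 ± 0.112.

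The kinesin-1 heavy chains, which carry many kinds of cargo, were unequal in level and in change. Kif5b, the form of most tissues, had 354 and 362 CPM under vehicle, 346 and 324 CPM at 2 h, and 296 and 294 CPM at 12 h. Both 12 h libraries were below the rest, but the log2FC of -0.28 ± 0.0946 missed the threshold (edgeR adjusted p = 0.0524). It was called in 8 of the alternatives (adjusted p 0.0122 to 0.0487), among them DESeq2, limma-voom and the replicate block (0.0282). Kif5c, a mainly neuronal form, had 4.48 and 2.04 CPM, 3.14 and 1.82 CPM, and 1.39 and 0.925 CPM, and its log2FC of -1.48 ± 0.494 was called narrowly (adjusted p = 0.0496). It too passed the filter without the 12 h libraries, so that this adjusted p is a description. The call on Kif5c was lost without vehicle replicate 1 (log2FC -0.81, adjusted p = 0.294), without either 12 h library (-1.83 and -1.24) and in limma-voom (adjusted p = 0.0718). Kif5a, the other neuronal form, held 3 to 15 reads a library and was not tested.

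The kinesin-3 motors, carriers of vesicles and endosomes, moved in different directions. Kif1b had 242 and 237 CPM under vehicle, 264 and 245 CPM at 2 h, and 156 and 160 CPM at 12 h, a log2FC of -0.60 ± 0.0955 (edgeR adjusted p = 0.00294). Kif13b, which binds the polarity protein Dlg1, fell in steps, from 56.1 and 55.1 CPM through 42.9 and 42.3 CPM to 29.3 and 29.8 CPM. Its log2FC was -0.38 ± 0.0976 at 2 h (adjusted p = 0.0448) and -0.91 ± 0.0987 at 12 h (adjusted p = 0.000606). The 2 h call of Kif13b was lost when any 1 library was left out (adjusted p 0.0669 to 0.218), with no filter (0.0739) and with only the 2 groups in the fit (0.101). Its 12 h call was kept in each of these fits. Kif1c, the most abundant member at 84.0 CPM per kb of exon with vehicle, had 594 and 591 CPM, 806 and 677 CPM, and 713 and 764 CPM. Its log2FC at 12 h, 0.32 ± 0.119, was not called (adjusted p = 0.0703), but it was called with a replicate block (0.0339), in DESeq2 (0.0455), with only the 2 groups (0.0426) and without either 2 h library (0.0429 and 0.0369). Kif13a had 34.9 and 38.2 CPM, 34.2 and 35.2 CPM, and 43.3 and 46.7 CPM, and passed with the block alone (log2FC 0.30, adjusted p = 0.0668 without and 0.0332 with it). Kif16b, an early endosome motor, lay between 69.6 and 85.2 CPM and was not called in any comparison. With the replicate block 3 of 10 transport kinesins were higher at 12 h and 4 lower, beside 27.8% and 27.5% of all genes in that fit.

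**Figure D5:**
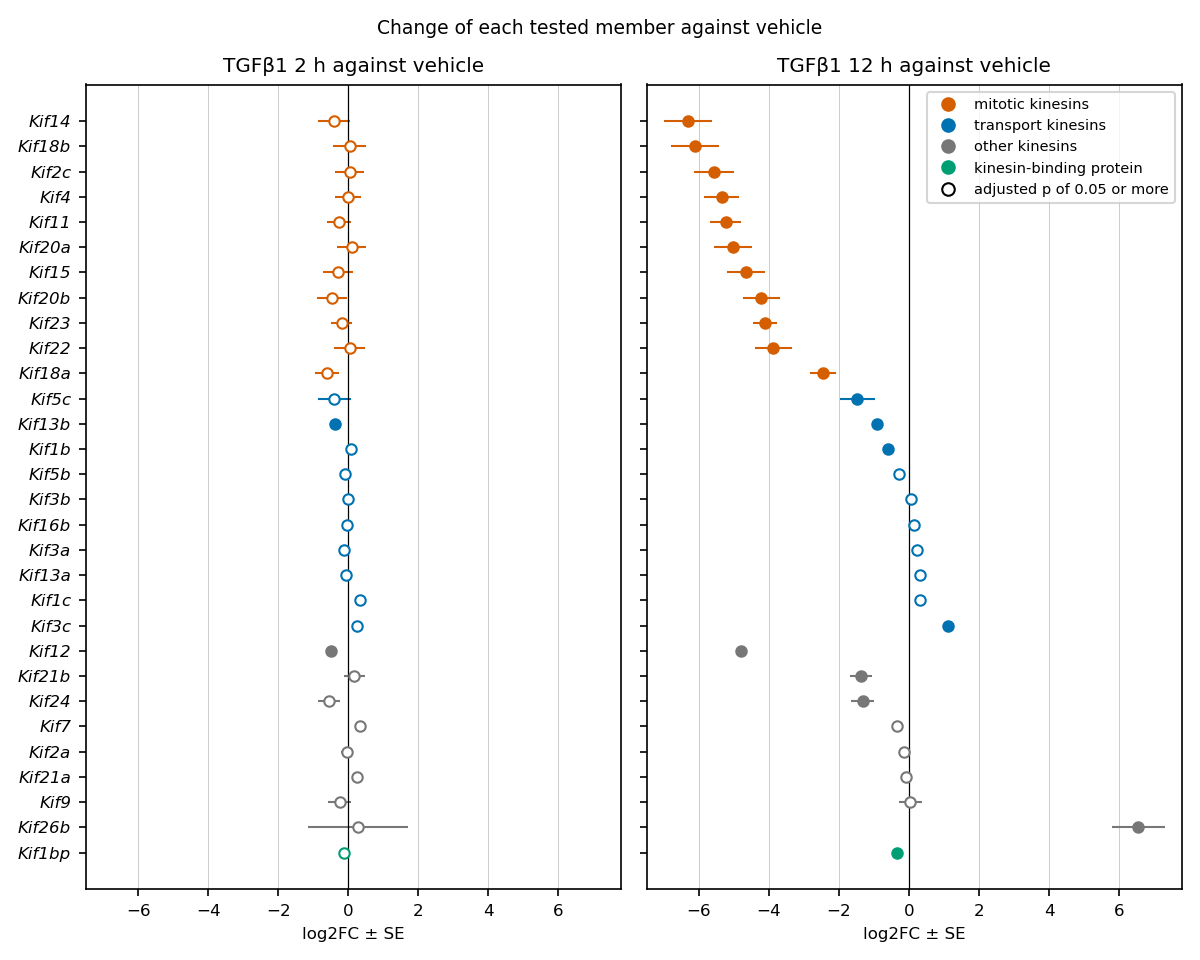
Log2FC with its SE (x axis) at 2 h and at 12 h against vehicle for the 30 tested members (y axis), coloured by list, with filled symbols for an adjusted p under 0.05. At 2 h all but Kif12 and Kif13b are open, and at 12 h the 11 mitotic kinesins lie between -6.32 and -2.45 and the transport kinesins between -1.48 and 1.10.

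Per kilobase of exon, the scale on which genes can be compared, the levels of both lists overlapped under vehicle. With vehicle, Kif11 stood at 46.3 ± 20.3 CPM per kb (SD, n = 2), Kif20a at 32.3 ± 15.1, Kif23 at 27.2 ± 10.7, Kif22 at 23.5 ± 12.2 and Kif20b at 16.5 ± 9.76, beside 84.0 ± 0.234 for Kif1c, 48.4 ± 0.781 for Kif5b, 18.97 ± 0.0700 for Kif3b and 13.6 ± 0.198 for Kif1b. Kif11 and Kif5b did not differ beyond their spread. The libraries of neighbouring mitotic members overlapped, although these 5 stood in the same order in both. Kif14 (3.09 ± 1.65) and Kif18a (2.65 ± 0.981) were the lowest tested mitotic kinesins. At 12 h the highest mitotic values were 1.59 ± 0.204 for Kif22 and 1.56 ± 0.0916 for Kif23 CPM per kb. Among tested transport kinesins only Kif5c, at 0.162 ± 0.0465 CPM per kb, was then below them.

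Of the 8 tested members in the list of other kinesins, 3 fell and 1 rose at 12 h, beside 21.5% and 21.8% of all genes. Kif12 (chr4:62826668-62833165 in mm9), a kinesin of kidney and bile duct epithelium, had 76.7 and 83.0 CPM under vehicle, 56.4 and 57.2 CPM at 2 h, and 2.88 and 2.83 CPM at 12 h. Its log2FC was -0.49 ± 0.10004 at 2 h (edgeR adjusted p = 0.0218) and -4.80 ± 0.125 at 12 h (adjusted p = 2.07e-05), and no 2 of the 3 groups overlapped. Unlike the mitotic kinesins, Kif12 was nearly equal between replicates. The 2 h call of Kif12 was lost in 5 of the 6 fits that left out a library (adjusted p up to 0.141) and with only the 2 groups in the fit (0.0593), and the 12 h call in none of these. Kif21b, a motor that limits microtubule growth, had 4.24 and 5.86 CPM, 4.51 and 6.86 CPM, and 1.70 and 2.21 CPM (log2FC -1.37 ± 0.323, adjusted p = 0.0142). Kif24, a centriolar kinesin that restrains cilium formation, had 5.24 and 8.10 CPM, 3.59 and 5.50 CPM, and 2.79 and 2.52 CPM (log2FC -1.32 ± 0.321, adjusted p = 0.0158). The 12 h calls of both were lost without vehicle replicate 2 and without either 12 h library (adjusted p 0.0537 to 0.0986).

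Kif26b (chr1:180459256-180862986 in mm9), a kinesin without motor activity that acts in Wnt5a signaling, was almost absent until 12 h. Its reads were 2 and 0 with vehicle, 0 and 3 at 2 h, and 141 and 127 at 12 h, the last equal to 6.15 and 6.52 CPM. The ratio of 12 h to vehicle was 103, with an exact 95% interval from counting error alone of 28.3 to 857. Against 2 h it was 83.4 (28.2 to 407). Kif26b passed the filter through the 12 h libraries alone and therefore had to differ, so that its adjusted p (0.000776) is given as a description. In the same way Kif14, Kif18b, Kif2c, Kif4, Kif15 and Kif5c were under 2 CPM in both 12 h libraries and passed through the other groups. Their adjusted p at 12 h is likewise given as a description. The remaining members of this list, Kif2a, Kif7, Kif9 and Kif21a, had log2FC between -0.34 and 0.04 at 12 h and were not called against vehicle. Kif2a, a depolymerase with roles in neurons and at the spindle, had 20.1 to 27.1 CPM over all libraries. Kif1bp went from 50.2 and 56.3 CPM to 41.5 and 42.9 CPM (log2FC -0.34 ± 0.108, adjusted p = 0.0443). This call was lost with no filter (adjusted p = 0.0630) and without either vehicle or either 12 h library (0.0708 to 0.233).

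The 9 members under the filter account for the rest. Kif19a had no read in any library. Kif2b, Kif6 and Kif26a had at most 1 read a library, Kif27 at most 2, Kif1a and Kif17 at most 4, and Kif4-ps at most 5. Reads of Kif4-ps may belong to Kif4, from which it derives, and none of these genes was compared.

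The comparison of 12 h with 2 h shares its 12 h libraries with the one against vehicle, so that its values are set beside those above without further reading. Of the 30 tested members 20 were called, beside 34.1% of all genes, with 16 lower at 12 h than at 2 h, beside 18.9%, and 4 higher, beside 15.2%. Those that also differed by more than 1 on the log2 scale were 13 lower (9.87% of all genes) and 1 higher (4.5%). The median log2FC was -4.97 for mitotic and 0.03 for transport kinesins, and 11 of 11 mitotic kinesins fell, by 1.84 (Kif18a) to 6.15 (Kif18b). Kif18a was no longer called without 12 h replicate 2 (adjusted p = 0.0900). Without 2 h replicate 2 the log2FC moved by more than 1.5 times in fold to -5.30 for Kif14, -5.46 for Kif18b, -4.97 for Kif2c, -4.45 for Kif20a and -3.28 for Kif22, and without 12 h replicate 2 to -6.51 for Kif14. That of Kif26b, 6.27 with all libraries, was 9.91 without 2 h replicate 2 and 5.33 without 2 h replicate 1. Kif3c (0.84), Kif13a (0.38), Kif3a (0.35) and Kif26b were the 4 higher members, and those of Kif13a and Kif3a were lost in all 6 fits without a library. Kif13b (-0.53), Kif1b (-0.69), Kif12 (-4.31), Kif21b (-1.54) and Kif7 (-0.69), a Hedgehog regulator at the cilium tip, were lower. The calls of Kif13b (adjusted p 0.0668 and 0.0583), Kif21b (0.0935 and 0.0572) and Kif7 (0.0950 and 0.0696) were lost without either 12 h library. Calls of lower levels were added by the replicate block, which called 48.5% of all genes, 25.2% lower and 23.3% higher, for Kif5c (adjusted p = 0.0109), Kif24 (0.0351) and Kif21a (0.0191).

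Genes that work with the 2 lists were set beside them, with lists that were also drawn up with results known. The counts at 12 h stand beside 21.5% of all genes lower and 21.8% higher. Of 4 tested kinesins named otherwise 2 fell at 12 h. Cenpe, a kinetochore kinesin named outside the Kif rule, fell from 62.6 and 140 CPM to 2.44 and 3.13 CPM at 12 h, and Kifc5b from 7.42 and 17.8 CPM to 1.53 and 0.771 CPM, although reads of Kifc5b may be shared with near-identical copies. Of 16 spindle and midzone partners 15 fell at 12 h, with Nusap1 (log2FC -6.68) and Hmmr (-5.91), both spindle microtubule proteins, at the lowest adjusted p, and Mapre1, which tracks growing microtubule ends in every phase, was not called (0.29). Of 17 G2/M genes and regulators 15 fell, among them Ccnb1 (-5.97) and Bub1 (-6.19), and E2f4, a subunit of DREAM, rose (0.66). Of 15 G1/S genes 7 fell and none rose, with a median of -0.98, with Ccne2 (-2.38) and Mcm5 (-4.11) at the lowest adjusted p. At 2 h none of the 16 partners and none of the 17 G2/M genes was called, beside 15.2% of all genes, and of the G1/S genes Ccne2 was lower (-1.38, edgeR adjusted p = 0.0218). With the replicate block the G1/S genes lower at 12 h were 11 and 1 was higher, Mcm6 (0.41, adjusted p = 0.0369), Mapre1 was called higher (0.29, adjusted p = 0.0355), 16 G2/M genes and all 4 kinesins named otherwise were lower, and at 2 h 1 partner, 2 G2/M genes and 3 G1/S genes (2 lower and 1 higher) were called. That fit called 55.3% of all genes at 12 h and 29.1% at 2 h (12.7% lower and 16.4% higher).

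The partners of transport kinesins did not show such a fall. Of 15 kinesin light chains and cargo adaptors 2 were lower at 12 h, Mapk8ip1 (-1.66) and Klc4 (-0.47), 3 were higher, and 10 were not called. Klc3, a light chain of kinesin-1, had the largest rise of the list, from 7.54 and 6.88 CPM with vehicle to 20.8 and 22.7 CPM (1.59), followed by adjusted p by Plekhm2, an adaptor of kinesin-1 on lysosomes (0.60). For cytoplasmic dynein and dynactin, the motor that runs in the other direction, 20 of 21 genes were tested, 1 was lower (Bicd1, -1.40), 5 were higher, with Bicd2 (0.80) and Actr1b (0.82) at the lowest adjusted p, and 14 were not called. Of all genes 21.8% were higher and 21.5% lower, so that the shares higher in these 2 lists were near the background. The medians of these 2 lists at 12 h were 0.15 and 0.22, beside 0.02 for all genes. With the replicate block 9 of 20 dynein and dynactin genes were higher, and of 15 light chains and adaptors 4 were higher and 3 lower, beside 27.8% of all genes higher and 27.5% lower in that fit.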

How the data were processed

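RNA-seq counts of NMuMG cells were analysed in 3 groups of 2 libraries, vehicle and TGFβ1 for 2 h and for 12 h. Per the study's methods, stranded total RNA was sequenced in single reads of 50 bases, filtered with FASTQ Toolkit and aligned to mm9 with subjunc, keeping unique reads, and duplicates were removed with SAMtools 0.1.19, which lowers the counts of the most abundant genes. The authors deposited raw counts per gene, made with featureCounts on exons of UCSC known genes with strand used and miRNAs left out.

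From these counts edgeR 4.0.16 (R 4.3.3) computed TMM factors and the quasi-likelihood test in 1 fit of 3 group means over 11080 genes that reached 2 CPM in 2 or more libraries, with Benjamini-Hochberg adjustment over all genes in each comparison and a threshold of 0.05. The SE of a log2FC is its size over the root of F. Levels per kb used exon lengths of GENCODE vM1, and intervals cover counting error only. The procedure was also run on simulated counts. These were drawn independently for each library, without the shared deviations of same-numbered libraries described below, and so cannot test their effect. Alternatives were limma 3.58.1 (voom), DESeq2 1.42.0, other scalings and filters, a replicate block, only 2 groups, each library left out and, chosen after seeing the data, ratios within replicate numbers.

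Same-numbered libraries deviated together (r across genes 0.708, 0.263 and 0.392 for vehicle with 2 h, vehicle with 12 h and 2 h with 12 h). This pairing comes from the data, since the labels name no shared batch. Replicates of a group differed far beyond counting noise (chi-square per degree of freedom 16.8 to 52.8), and the methods call them independent biological replicates.

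Members and lists were chosen with earlier results of these data known, so lists are described by counts and medians without a test. Values in every library are given for mitotic and transport kinesins with an adjusted p under 0.05 in any comparison or among the 3 most abundant of their list, and for other kinesins that also had an absolute log2FC above 1. Kif1bp, Kif3b, Kif7 and the untested members were named in addition. Outside the family, at most the 2 genes of each list with the lowest adjusted p in each direction are named, and Mapre1 and Mcm6 as exceptions, chosen after their values were seen. Kifc1 and Stard9 were not analysed here.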

Additional observations from a re-analysis of the deposited data

Results flagged for a closer look

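The change at 12 h differed from that at 2 h, by the edgeR test of 12 h against 2 h, for 20 members. The log2FC between the times was -5.92 for Kif14, -6.15 for Kif18b, -5.61 for Kif2c, -5.34 for Kif4, -4.97 for Kif11, -5.12 for Kif20a, -4.36 for Kif15, -3.76 for Kif20b, -3.93 for Kif23, -3.93 for Kif22 and -1.84 for Kif18a. Among transport kinesins it was -0.69 for Kif1b, -0.53 for Kif13b, 0.35 for Kif3a, 0.38 for Kif13a and 0.84 for Kif3c. Among other kinesins it was -4.31 for Kif12, -1.54 for Kif21b, -0.69 for Kif7 and 6.27 for Kif26b, the last from 3 reads over both 2 h libraries. With 2 libraries in each group no single library could be tested as an outlier.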

How the results depend on the processing

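The fall of 11 mitotic kinesins at 12 h was kept under every test, scaling and left-out library tried. With at least 10 counts in every library 9 could be tested, and all 9 fell. Scaling by total counts moved the median of all genes to -0.12 at 2 h and -0.11 at 12 h. At 2 h the number of members lower, 2 in the report, was 1 with no filter, 0 with only the 2 groups and 0 to 1 with a library left out. At 12 h the number higher was 1 with at least 10 counts, which drops Kif26b, 4 with the replicate block and 1 to 3 with a library left out. Against 2 h the number higher was 2 with no filter, 2 with only the 2 groups and 1 to 2 with a library left out. The mitotic median less the transport median at 2 h, -0.14, went from -0.60 to 0.41 with a library left out (0.41 without vehicle replicate 2). It was -0.030 within replicate 1 and -0.15 within replicate 2. At 12 h, -5.13 became -4.55 to -5.55 with a library left out, and it was -4.55 within replicate 1 and -5.33 within replicate 2. TTTGAA stood in 0 of the transport promoters of tested genes, in 14.03% of those of all tested genes, and on the forward strand alone in 11.6% of all promoters and 54.5% of the mitotic ones. The cause was not tested for any of these.

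Signs that turned at 2 h belonged to members not called there. Under total counts Kif2c came to -0.066, Kif22 to -0.063, Kif18b to -0.065, Kif20a to -0.015 and Kif1b to -0.024. limma-voom gave 0.021 for Kif4 and -0.035 for Kif26b, and the replicate block gave 0.0097 for Kif4. With a library left out the ranges were -1.02 to 0.28 for Kif14, -0.60 to 0.64 for Kif2c, -0.61 to 0.70 for Kif22, -0.55 to 0.27 for Kif23, -0.84 to 0.37 for Kif15, -0.50 to 0.58 for Kif4, -0.65 to 0.76 for Kif18b, -0.58 to 0.67 for Kif20a, -0.97 to 0.31 for Kif20b, -0.72 to 0.26 for Kif11, -0.87 to 0.28 for Kif5c, -0.16 to 0.43 for Kif21b and -3.36 to 3.68 for Kif26b, and -0.13 to 0.13 for Kif1c between 2 h and 12 h. The fits behind these ranges take no account of the replicate number. Within same-numbered libraries Kif11, Kif14, Kif15, Kif20b, Kif23 and Kif5c were lower at 2 h in both replicates. Kif2c, Kif18b, Kif22 and Kif21b were higher in both, and Kif4, Kif20a and Kif26b differed in sign. Apart from the calls given with the results, the replicate block changed no call of a member. A fit that leaves out a library rests a group on 1 sample, assumed to vary like the others. In both 12 h libraries Kif14 and Kif18b held 12 reads or fewer, so that depth limits the size of their fall.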
